A study of Homo sapiens with 6 samples.

Results

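The comparison described here sets AsPC-1 cells transfected with HMOX1si1, 1 of the study's 2 siRNAs against HMOX1, against cells transfected with a negative control siRNA (siControl). AsPC-1 is an established human line of pancreatic ductal adenocarcinoma. Transfection used the reagent jetPRIME in both arms, no dose or harvest time is given in the labels used here, and RNA sequencing of gene transcripts was the readout. Each arm holds 2 libraries. Another arm, HMOX1si2, also with 2 libraries, is described below only beside HMOX1si1. Its libraries also entered the expression filter, the scaling and the shared estimate of the spread behind every test. The members are all genes that passed an expression filter run on all 6 libraries, 13769 of the 20263 genes in the table. The comparison itself sets 4 of the 6 libraries against each other. The labels do not say that replicates came from separate cultures. The p-values therefore reflect just the spread of these 6 libraries, and that spread may be technical. The study's design text states an interest in how HMOX1 bears on the proliferation of pancreatic cancer cells.

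Heme oxygenase-1, the product of HMOX1, is an inducible enzyme that splits heme into biliverdin, carbon monoxide and iron. Its gene is repressed by the heme-sensing factor BACH1 and activated by NRF2, so it is grouped with the oxidative stress genes. A small interfering RNA loads into the RNA-induced silencing complex and directs cleavage of a matching transcript. It can also lower other transcripts that match only its seed.

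HMOX1 (chr22:35380361-35394214, plus strand, GRCh38 as annotated by GENCODE 29) was read first, as the check of the labels. It was at 9.06 and 8.52 CPM in the siControl libraries and 2.43 and 2.80 in the HMOX1si1 libraries (CPM, the count scaled to library size after TMM normalisation). Both HMOX1si1 libraries were below both controls (log2 fold change −1.75 with an SE of 0.16, edgeR adjusted p = 0.00618). The HMOX1si2 libraries were lower still, at 1.27 and 1.17 CPM, so HMOX1si1 left more HMOX1 transcript than HMOX1si2 did (log2 difference −1.10 with an SE of 0.17, edgeR adjusted p = 0.0284).

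The 4 libraries held 36.1 to 45.1 M counts, and 14999 to 15182 genes had at least 1 count. Mitochondrial transcripts took 6.42% and 7.20% of counts in the controls and 5.95% and 8.13% with HMOX1si1, ranges that overlap. Replicates of a group were further apart than sampling noise allows: chi-square over its degrees of freedom was 38.5 in siControl and 49.0 in HMOX1si1. Of 10 ductal or epithelial markers 9 were counted in every library, among them EPCAM, CDH1 and the keratins KRT7, KRT8, KRT18 and KRT19. The summed epithelial markers ran from 13801 to 15658 CPM in the controls and from 9466 to 9885 CPM with HMOX1si1. Most of that sum was KRT8, KRT19 and KRT18. CDH1 and SOX9 were the only members higher in both HMOX1si1 libraries than in both controls. CDH1 was at 91.0 and 74.9 CPM with siControl and 110.6 and 98.5 with HMOX1si1. SOX9 was at 69.7 and 66.2 CPM with siControl and 95.4 and 117.7 with HMOX1si1. Markers of other cell types were at or near 0, with summed levels of at most 1.71 CPM for endothelium, 0.586 for acinar cells and 0.1 for endocrine cells, and with CD3E and HBB at 0. The fibroblast list stood at 119 to 125 CPM in the controls and 91.2 to 95.4 with HMOX1si1, nearly all of it LUM, and the blood list at 48.9 to 63.8 and 44.6 to 46.0, nearly all of it LYZ and CD14.

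With HMOX1si1, 1381 of the 13769 genes passed an adjusted p of 0.05 in the quasi-likelihood test of edgeR after Benjamini-Hochberg adjustment, 10.0% of those tested. Of these 691 rose (5.02%) and 690 fell (5.01%), and the change was at least 2-fold in 188 and 207 of them. The median log2 fold change was 0.72 among the genes that rose and −0.78 among those that fell, against −0.00 over all tested genes. Both HMOX1si1 libraries lay on the same side of both controls in each of the 1381 genes. That held for 63.9% of all tested genes, so separated libraries alone say little with 2 libraries a side. The plot of change by level shows called genes at all levels of expression.

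**Figure D1:**
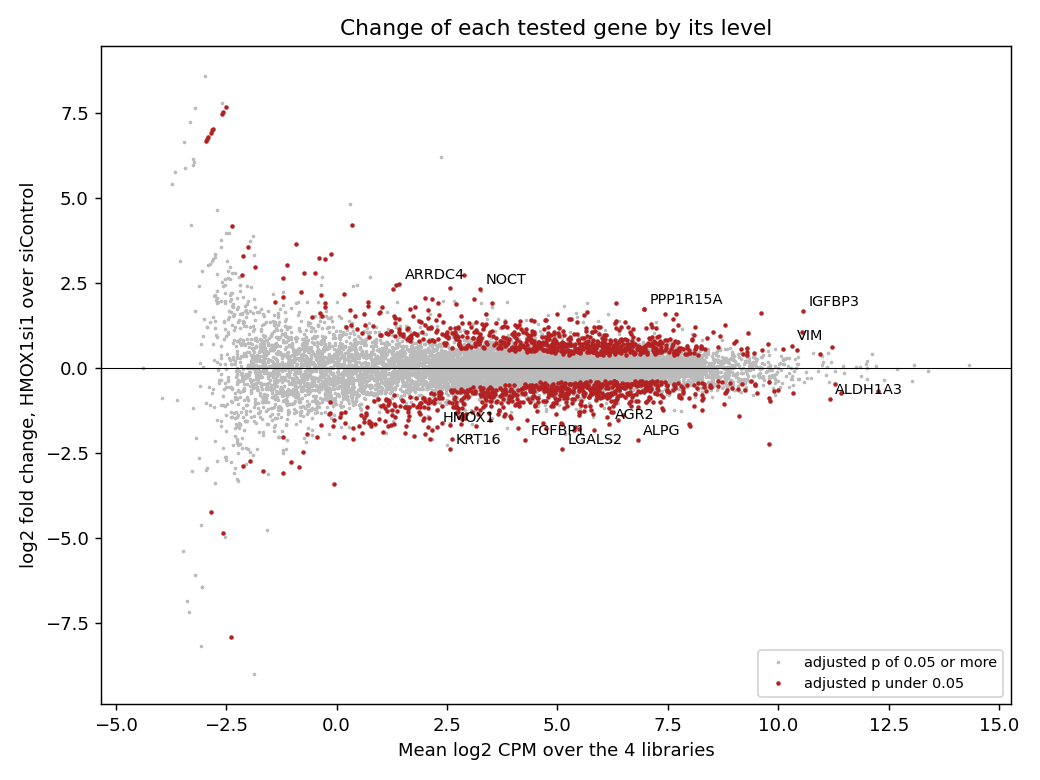
Each point is 1 of the 13769 tested genes, with its mean log2 CPM over the 4 libraries on the x axis and its log2 fold change, HMOX1si1 over siControl, on the y axis. Red points are the 1381 genes with an adjusted p under 0.05, and HMOX1 lies among the lower ones at −1.75. Far left, a gene at 0 counts in 1 group has a fitted value that is no measured bound.

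Among called genes at a mean log2 CPM of 2 or more, the largest falls included LGALS2, KRT16, ALPG and FGFBP1, each over 4-fold. LGALS2, which encodes a galectin of the gut epithelium, was at 73.1 and 85.4 CPM in the siControl libraries and 16.6 and 13.5 in the HMOX1si1 libraries (log2 fold change −2.39 with an SE of 0.21, edgeR adjusted p = 0.00618). KRT16, a stress-inducible keratin of squamous epithelium, was at 12.02 and 14.8 CPM in the siControl libraries and 2.58 and 2.55 in the HMOX1si1 libraries (log2 fold change −2.39 with an SE of 0.18, edgeR adjusted p = 0.00556). ALPG, a germ-cell alkaline phosphatase (chr2:232406843-232410714, plus strand), fell from 226 and 249.5 to 52.1 and 55.8 CPM (log2 fold change −2.14 with an SE of 0.11, edgeR adjusted p = 0.00453). FGFBP1, a secreted carrier that releases fibroblast growth factors from the matrix, fell from 38.5 and 42.6 to 8.85 and 9.58 CPM (log2 fold change −2.14 with an SE of 0.12, edgeR adjusted p = 0.00491). In these 4 genes both HMOX1si1 libraries lay far below both controls, although every called gene had separated libraries.

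FBXO2, the substrate receptor of a ubiquitin ligase for glycoproteins, fell from 8.57 and 9.28 to 1.91 and 2.23 CPM (log2 fold change −2.11 with an SE of 0.17, edgeR adjusted p = 0.00598). SLC2A6, a sugar transporter of the GLUT family, fell from 100.5 and 117 to 32.1 and 28.4 CPM (log2 fold change −1.84 with an SE of 0.15, edgeR adjusted p = 0.00598). NR0B2, also called SHP, is a nuclear receptor that represses bile acid synthesis, and it fell from 72.4 and 81.2 to 23.8 and 22.4 CPM (log2 fold change −1.73 with an SE of 0.10, edgeR adjusted p = 0.00491). PRR15L (−2.09), CARNS1, the carnosine synthase (−1.84), CYP2B6, a cytochrome P450 (−1.83), TMEM151A (−1.80), APLP1, an amyloid precursor-like protein (−1.77), RASL11A, a RAS-like GTPase (−1.77), and PRRT2 (−1.76) complete the 15 largest log2 falls with ENSG00000284292, described further on. FBXO2, CARNS1, APLP1 and PRRT2 share exonic bases with other genes, so their counts may include reads of those neighbours. Such overlap was present in 330 of the 1381 called genes, beside 4400 of all 13769 tested genes (32.0%). Among the 330 were IL1RL1, SULF2, SMURF1, CA9, HJURP, DIABLO and CYP1B1, described below.

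The largest rises at the same expression minimum included NOCT, NAV2, PPP1R15A and IGFBP3. NOCT, a phosphatase of the nicotinamide cofactors with a strong daily rhythm, was at 4.48 and 4.01 CPM in the siControl libraries and 19.6 and 22.4 in the HMOX1si1 libraries (log2 fold change 2.31 with an SE of 0.14, edgeR adjusted p = 0.00491). NAV2, a neuron navigator protein, was at 2.82 and 2.39 CPM in the siControl libraries and 12.04 and 14.3 in the HMOX1si1 libraries (log2 fold change 2.34 with an SE of 0.17, edgeR adjusted p = 0.00538). PPP1R15A, also called GADD34, directs the phosphatase that reverses eIF2 alpha phosphorylation, and it rose from 64.9 and 71.5 to 213 and 239.8 CPM (log2 fold change 1.73 with an SE of 0.14, edgeR adjusted p = 0.00571). IGFBP3, a secreted binding protein of insulin-like growth factors, rose from 880.4 and 824 to 2534 and 2847 CPM (log2 fold change 1.66 with an SE of 0.16, edgeR adjusted p = 0.00673). None of these pairs of libraries overlapped, as in every called gene.

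IL1RL1, the receptor of interleukin-33, rose from 1.96 and 1.92 to 8.11 and 8.08 CPM (log2 fold change 2.06 with an SE of 0.23, edgeR adjusted p = 0.00946). DHRS2, a short-chain dehydrogenase, rose from 3.84 and 4.71 to 16.6 and 18.1 CPM (log2 fold change 2.02 with an SE of 0.16, edgeR adjusted p = 0.00556). HIPK1, a homeodomain-interacting kinase, rose from 33.6 and 24.7 to 79.8 and 103 CPM (log2 fold change 1.65 with an SE of 0.19, edgeR adjusted p = 0.01). TMEM132B (1.92), ZNF554 (2.01), RSAD2 (1.89), NR1D1 (1.89), FOSB (1.87), FOSL1 (1.73) and BARX2, a homeobox factor (1.71), rose as well. PDXP, the pyridoxal phosphatase, had the largest log2 fold change of this set, 2.74, but with an SE of 0.63 and an edgeR adjusted p of 0.0482. How reads were divided between PDXP and its neighbour SH3BP1 was not tested. The plot of the extreme genes gives every library.

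**Figure D2:**
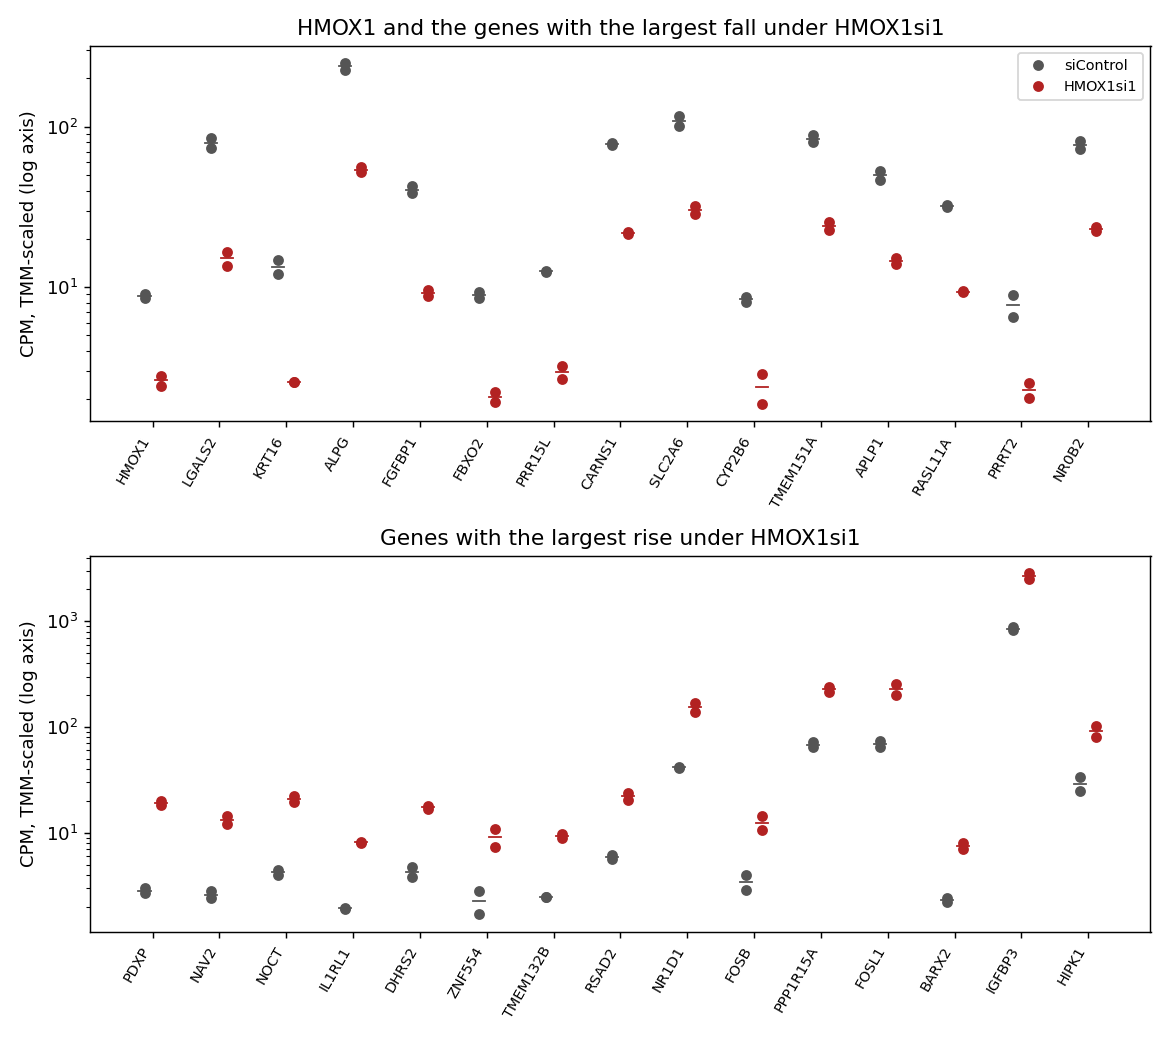
CPM after TMM scaling on a log axis, with 1 point per library and a bar at the group mean, for siControl (grey) and HMOX1si1 (red). The upper panel holds HMOX1 and the 14 named genes with the largest falls other than ENSG00000284292, and the lower panel the 15 with the largest rises. No HMOX1si1 library reaches a control library in either panel, as in every called gene.

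Measured in CPM instead of fold, the called genes that fell most were KRT8, ENSG00000284292, ALDH1A3, KRT19, KRT18 and GPRC5A. KRT8, the type II keratin of simple epithelium, fell from 5799 and 6606 to 3981 and 3772 CPM (log2 fold change −0.68 with an SE of 0.10, edgeR adjusted p = 0.0155). ALDH1A3, which makes retinoic acid, fell from 3282 and 3093 to 1699.6 and 1642 CPM (log2 fold change −0.93 with an SE of 0.09, edgeR adjusted p = 0.00619). GPRC5A, an orphan receptor induced by retinoic acid, fell from 1672 and 1703 to 981 and 1021 CPM (log2 fold change −0.75 with an SE of 0.09, edgeR adjusted p = 0.0101). All 3 were lower in both HMOX1si1 libraries than in either control, as was every called gene that fell.

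The rises largest in CPM among called genes were IGFBP3, LAMB3, SULF2, ARPC1A, VIM and SMURF1. SULF2, an extracellular sulfatase of heparan sulfate, rose from 1067 and 1000.1 to 1946 and 2308 CPM (log2 fold change 1.04 with an SE of 0.16, edgeR adjusted p = 0.0186). VIM, the intermediate filament vimentin, rose from 969 and 1055 to 1503 and 1668 CPM (log2 fold change 0.65 with an SE of 0.10, edgeR adjusted p = 0.0178). SMURF1, a ubiquitin ligase of the BMP and RHOA pathways, rose from 1782 and 1672 to 2218 and 2335 CPM (log2 fold change 0.40 with an SE of 0.09, edgeR adjusted p = 0.0403). ARPC1A, a subunit of the ARP2/3 actin nucleator, rose from 1888 and 1955 to 2979.6 and 2944 CPM (log2 fold change 0.62 with an SE of 0.08, edgeR adjusted p = 0.0123). ARPC1A shares exons with ENSG00000284292, a readthrough gene model (chr7:99325879-99394653, plus strand) that also covers ARPC1B and part of PDAP1. That model fell from 1783 and 2108 to 439 and 379 CPM (log2 fold change −2.25 with an SE of 0.18, edgeR adjusted p = 0.00556). Whether counts moved between the 2 models was not tested.

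Heme synthesis makes the substrate of HMOX1. In the heme synthesis list 3 of 13 measured genes fell (23.1%) and 0 rose. Over all genes tested 5.01% fell and 5.02% rose, and the counts of the other lists stand beside the same shares. The heme synthesis list had a median log2 fold change of −0.34. ALAS1, the rate-limiting enzyme outside the erythroid lineage, was at 337 and 347 CPM in the siControl libraries and 180.0 and 189.5 in the HMOX1si1 libraries (log2 fold change −0.89 with an SE of 0.09, edgeR adjusted p = 0.0072). CPOX, the coproporphyrinogen oxidase of mitochondria, fell from 20.8 and 17.8 to 11.9 and 12.3 CPM (log2 fold change −0.67 with an SE of 0.13, edgeR adjusted p = 0.0322). The 4 values of ALAS1 and of CPOX did not overlap between groups, which is so for every called gene.

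In the list of heme breakdown and transport, which leaves HMOX1 itself out, 3 of 12 genes fell and 0 rose (median −0.23). The list median per library, as log2 against the control mean, was −0.076 in HMOX1si1 replicate 1 and −0.387 in replicate 2. In the controls it was −0.015 and 0.015. SLC48A1, the transporter that brings heme from lysosomes into the cytosol, fell from 108 and 121 to 51.3 and 52.7 CPM (log2 fold change −1.14 with an SE of 0.11, edgeR adjusted p = 0.00691). HMOX2, the constitutive heme oxygenase, was at 107 and 99.5 CPM in the siControl libraries and 76.5 and 75.0 in the HMOX1si1 libraries (log2 fold change −0.44 with an SE of 0.09, edgeR adjusted p = 0.0338). SLC46A1, a folate carrier that also takes up heme, had a log2 fold change of −0.74. SLC48A1, SLC46A1 and HMOX2 each share exons with neighbouring genes. Iron handling showed 1 call among 22 genes: SLC11A2, the iron importer DMT1, fell from 73.5 and 74.1 to 47.3 and 44.1 CPM (log2 fold change −0.69 with an SE of 0.09, edgeR adjusted p = 0.0135). FTH1, the heavy chain of the iron store ferritin, was at 5664 and 6616 CPM in siControl and 4625 and 4865 in HMOX1si1. Those HMOX1si1 values were below both controls, but the change missed the adjusted threshold (log2 fold change −0.37, edgeR unadjusted p = 0.0173, edgeR adjusted p = 0.0911).

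Among targets of NRF2 and BACH1, the regulators of HMOX1 itself, 8 of 36 measured genes fell and 0 rose, with a median of −0.16. The aldo-keto reductases, which reduce carbonyls and steroids, gave 4 of the 8 falls. AKR1B10 fell from 11.6 and 13.5 to 3.72 and 4.23 CPM (log2 fold change −1.66 with an SE of 0.15, edgeR adjusted p = 0.00618). AKR1C1 fell from 282 and 304 to 166 and 154 CPM (log2 fold change −0.87 with an SE of 0.12, edgeR adjusted p = 0.0152), and AKR1C3 (−0.78) and AKR1C2 (−0.71) fell too. AKR1C1, AKR1C2 and AKR1C3 are near-identical copies, so the split of reads among them is uncertain. PGD, an NADPH-making enzyme of the pentose phosphate pathway (−0.39), GSR, glutathione reductase (−0.43), and MGST1, a microsomal glutathione transferase (−0.50), were among the other falls. In the ferroptosis list 1 of 22 genes fell, the desaturase SCD (−0.45, edgeR adjusted p = 0.049). GPX4, the peroxidase that guards against lipid peroxides, was at 362 and 428 CPM in siControl and 286 and 310.1 in HMOX1si1 (log2 fold change −0.41, edgeR adjusted p = 0.0749).

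Stress pathways were split. Of 34 targets of ATF4, the factor of the integrated stress response, 2 rose and 4 fell (median −0.14). NUPR1, a stress-induced chromatin protein, rose from 3.62 and 4.17 to 7.18 and 8.40 CPM (log2 fold change 0.998 with an SE of 0.16, edgeR adjusted p = 0.0213), alongside PPP1R15A. PSPH, the last enzyme of serine synthesis, fell from 31.4 and 35.1 to 14.3 and 16.0 CPM (log2 fold change −1.13 with an SE of 0.14, edgeR adjusted p = 0.0107). GDF15, a secreted stress cytokine, fell from 134 and 144 to 68.7 and 85.1 CPM (log2 fold change −0.85 with an SE of 0.14, edgeR adjusted p = 0.0213), and so did ASNS, asparagine synthetase (−0.58). Of 22 amino acid transporters 2 fell and 1 rose, with SLC7A7, which exports cationic amino acids, at 112 and 118 CPM in the siControl libraries and 43.8 and 41.0 in the HMOX1si1 libraries (log2 fold change −1.44 with an SE of 0.10, edgeR adjusted p = 0.00536).

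No aminoacyl-tRNA synthetase of 20 passed edgeR's quasi-likelihood test, although 5 had an unadjusted p under 0.05 and DESeq2 called 2. Likewise none of 16 heat shock chaperones passed in edgeR (3 at an unadjusted p under 0.05, DESeq2 1). Among 24 endoplasmic reticulum chaperones and their regulators SEL1L (−0.60), the adaptor of misfolded protein export, and PDIA6 (−0.57), a disulfide isomerase, fell.

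Immediate early genes, which switch on within minutes of a growth factor or stress signal and encode AP-1 and EGR factors, showed 7 rises and 0 falls among 25 measured (median 0.45). JUN was at 26.6 and 28.2 CPM in the siControl libraries and 68.4 and 69.6 in the HMOX1si1 libraries (log2 fold change 1.33 with an SE of 0.09, edgeR adjusted p = 0.00536). FOSL1, its AP-1 partner FRA-1, rose from 73.1 and 64.5 to 199 and 257 CPM (log2 fold change 1.73 with an SE of 0.16, edgeR adjusted p = 0.00618). EGR1 rose from 119.6 and 120.1 to 279 and 370.2 CPM (log2 fold change 1.44 with an SE of 0.25, edgeR adjusted p = 0.0255), and KLF10 from 52.6 and 48.0 to 118 and 141 CPM (log2 fold change 1.37 with an SE of 0.16, edgeR adjusted p = 0.0104). FOSB (1.87), EGR2 (1.78) and CCN1, a matrix protein read by integrins (0.65), were the others. No HMOX1si1 library overlapped a control in any of the 7, which holds for every called gene.

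The promoter of EGR1 is shown because this class of genes is known for serum response elements, and that of PPP1R15A because its gene is known for a cyclic AMP response element. Both are RefSeq sequence of GRCh38.p14, the 250 bases before the annotated start, read 5′ to 3′ along the gene. EGR1 lies at chr5:138465229-138465478, plus strand, and PPP1R15A at chr19:48872171-48872420, plus strand.
EGR1: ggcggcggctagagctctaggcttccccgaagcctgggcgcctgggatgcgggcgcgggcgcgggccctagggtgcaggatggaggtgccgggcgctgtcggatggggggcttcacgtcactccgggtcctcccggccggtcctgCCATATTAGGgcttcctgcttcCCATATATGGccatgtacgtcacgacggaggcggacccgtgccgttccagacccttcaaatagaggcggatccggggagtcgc
PPP1R15A: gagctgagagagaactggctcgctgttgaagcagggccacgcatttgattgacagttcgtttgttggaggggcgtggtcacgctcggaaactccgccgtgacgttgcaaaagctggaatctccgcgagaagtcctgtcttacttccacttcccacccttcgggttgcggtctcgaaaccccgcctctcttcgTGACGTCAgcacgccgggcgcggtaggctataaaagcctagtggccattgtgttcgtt
Capitals mark the 2 CArG boxes of EGR1, which start 105 and 83 bases before the annotated start, and the TGACGTCA of PPP1R15A, which starts 58 bases before it. On both strands, a CArG box occurred in 1.04% and TGACGTCA in 2.82% of the 10911 tested genes with a promoter in the RefSeq table. Of the 19 measured immediate early genes with a promoter there, 1 held a CArG box, EGR1 itself. A match is a description of the letters only.

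Around the ERK cascade 2 of 26 receptors, ligands and feedback genes rose and 1 fell, a share of 11.5% called, near the 10.0% of all genes. EREG, the EGF-family ligand epiregulin, was at 24.8 and 23.3 CPM in the siControl libraries and 50.6 and 51.8 in the HMOX1si1 libraries (log2 fold change 1.09 with an SE of 0.10, edgeR adjusted p = 0.00673). PHLDA1 rose from 413 and 385 to 661 and 657 CPM (log2 fold change 0.72 with an SE of 0.09, edgeR adjusted p = 0.0117), and DUSP7, a phosphatase that switches off ERK, fell from 185 and 188 to 94.6 and 107 CPM (log2 fold change −0.88 with an SE of 0.13, edgeR adjusted p = 0.0187). ERBB3 was at 463 and 443 CPM in siControl and 568 and 589.9 in HMOX1si1 (log2 fold change 0.35, edgeR adjusted p = 0.0538). Of 25 genes of FOXO and insulin signalling, 5 rose (median 0.34): IGF1R, the receptor of insulin-like growth factor (0.60), its adaptor IRS2 (0.63), the factors FOXO3 (0.59) and FOXO4 (0.60), and PNRC1 (0.73). TSC22D3, a glucocorticoid-induced leucine zipper (−1.02), and CCNG2, an atypical cyclin (−1.002), fell.

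Alpha-arrestins, adaptors that pull nutrient transporters and receptors off the membrane, moved with their glucose-sensing regulators in both directions: 5 of 15 rose and 4 fell. ARRDC3 was at 51.3 and 49.8 CPM in the siControl libraries and 128 and 121 in the HMOX1si1 libraries (log2 fold change 1.30 with an SE of 0.09, edgeR adjusted p = 0.00536). TXNIP, which restrains glucose uptake, rose from 199 and 194 to 389 and 381 CPM (log2 fold change 0.97 with an SE of 0.09, edgeR adjusted p = 0.00618). ARRDC4 rose from 1.19 and 1.04 to 5.65 and 6.55 CPM (log2 fold change 2.46 with an SE of 0.18, edgeR adjusted p = 0.00538). MLXIP, the sensor MondoA, rose (0.63), whereas its paralog MLXIPL, the sensor ChREBP, fell from 9.62 and 10.6 to 4.32 and 4.63 CPM (log2 fold change −1.18 with an SE of 0.19, edgeR adjusted p = 0.022). ARRDC1 (−0.52) and SLC2A6 were among the other falls. In glycolysis and hypoxia 1 of 35 genes rose and 2 fell, led by CA9, a membrane carbonic anhydrase of hypoxic cells, which fell from 239 and 276 to 115 and 103 CPM (log2 fold change −1.24 with an SE of 0.12, edgeR adjusted p = 0.00702).

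Clock genes form a feedback loop in which CLOCK and BMAL1 drive PER, CRY and NR1D genes through E-boxes, and the products repress the loop. Of 23 measured, 6 rose and 1 fell (median 0.24). NR1D1, the repressor REV-ERB alpha, was at 40.8 and 42.1 CPM in the siControl libraries and 139 and 169 in the HMOX1si1 libraries (log2 fold change 1.89 with an SE of 0.17, edgeR adjusted p = 0.00618). PER1 rose from 37.3 and 42.1 to 94.2 and 89.4 CPM (log2 fold change 1.21 with an SE of 0.11, edgeR adjusted p = 0.00673), and CIART, a repressor of CLOCK, rose from 2.49 and 3.29 to 8.30 and 8.75 CPM (log2 fold change 1.56 with an SE of 0.22, edgeR adjusted p = 0.0152). PER2 (0.57), NR1D2 (0.50) and NOCT were the other rises, and TEF, an output factor of the clock, fell from 38.6 and 35.0 to 22.2 and 20.9 CPM (log2 fold change −0.77 with an SE of 0.11, edgeR adjusted p = 0.0152). NR1D1 shares exons with THRA on the opposite strand, and PER1 with an unnamed gene.

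The promoters of CIART, PER1 and ARRDC4 are printed because the E-box is the letter pattern through which clock and glucose-sensing factors are known to act. They are RefSeq sequence of GRCh38.p14, 250 bases before the start, at chr1:150282304-150282553, plus strand, at chr17:8152405-8152654, minus strand, and at chr15:97960453-97960702, plus strand.
CIART: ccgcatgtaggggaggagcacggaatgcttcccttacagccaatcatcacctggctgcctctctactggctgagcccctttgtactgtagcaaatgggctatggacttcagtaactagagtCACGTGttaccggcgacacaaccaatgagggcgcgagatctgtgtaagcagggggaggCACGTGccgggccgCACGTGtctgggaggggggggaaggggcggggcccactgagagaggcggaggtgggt
PER1: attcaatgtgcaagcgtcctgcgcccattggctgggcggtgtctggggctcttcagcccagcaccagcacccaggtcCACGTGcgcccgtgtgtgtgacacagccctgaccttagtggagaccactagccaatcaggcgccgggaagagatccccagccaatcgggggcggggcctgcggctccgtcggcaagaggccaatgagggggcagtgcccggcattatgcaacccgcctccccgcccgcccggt
ARRDC4: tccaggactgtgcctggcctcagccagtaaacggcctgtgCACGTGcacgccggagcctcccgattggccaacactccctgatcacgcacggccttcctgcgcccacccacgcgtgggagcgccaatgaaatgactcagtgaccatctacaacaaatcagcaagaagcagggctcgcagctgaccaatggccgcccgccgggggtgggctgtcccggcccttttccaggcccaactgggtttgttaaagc
Capitals mark CACGTG, the same on both strands, found 3 times in CIART (129, 71 and 57 bases before the start), once in PER1 (173) and once in ARRDC4 (210). It occurred in 8.82% of the 10911 promoters of tested genes, in 12.07% of the 555 that rose and in 8.11% of the 493 that fell. Of the 21 clock genes with a promoter in the table, 5 held it, namely BHLHE40, BHLHE41, CIART, PER1 and TEF. Among the 6 clock genes that rose, 2 held it, CIART and PER1. Of the 12 alpha-arrestin and glucose-sensing genes with a promoter, 2 held it, ARRDC4 and MLX.

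Desmosomes tie epithelial cells to each other and hemidesmosomes tie them to the basement membrane. In the desmosome and hemidesmosome list 8 of 22 rose and 1 fell (median 0.25). LAMB3, the beta chain of laminin-332 (chr1:209614870-209652466, minus strand), was at 442 and 448 CPM in the siControl libraries and 1362 and 1362 in the HMOX1si1 libraries (log2 fold change 1.61 with an SE of 0.08, edgeR adjusted p = 0.00453). COL17A1, a collagen that spans the hemidesmosome membrane, rose from 474 and 420.2 to 872 and 940.3 CPM (log2 fold change 1.02 with an SE of 0.10, edgeR adjusted p = 0.0074). In both genes both HMOX1si1 libraries lay above both controls, as in every called gene that rose.

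ITGA6, the alpha chain of the hemidesmosome integrin, rose from 342 and 256 to 551 and 592 CPM (log2 fold change 0.93 with an SE of 0.16, edgeR adjusted p = 0.0227). The desmosomal cadherins DSG2 (0.79), DSG3 (1.04), DSC2 (0.73) and DSC3 (1.001) all rose, and JUP, plakoglobin of the plaque, fell from 1174 and 1419 to 782 and 853 CPM (log2 fold change −0.67 with an SE of 0.14, edgeR adjusted p = 0.0373). Among adherens and tight junction genes 2 of 26 fell and 1 rose. OVOL1, a repressor of mesenchymal genes, fell from 12.3 and 11.1 to 4.53 and 4.13 CPM (log2 fold change −1.43 with an SE of 0.14, edgeR adjusted p = 0.00675), and so did ESRP2, an epithelial splicing regulator (−0.67). NECTIN1, an adhesion receptor, rose (0.56).

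Keratins, the filaments of the epithelial cytoskeleton, showed 6 falls and 0 rises among 13 measured (median −0.51). KRT19, a ductal marker, was at 3301 and 3729 CPM in the siControl libraries and 2109 and 2123 in the HMOX1si1 libraries (log2 fold change −0.73 with an SE of 0.09, edgeR adjusted p = 0.0112). KRT18, the partner of KRT8, fell from 2712 and 3157 to 2188 and 2050.4 CPM (log2 fold change −0.47 with an SE of 0.11, edgeR adjusted p = 0.0461). KRT80 (−0.65) and KRT23 (−0.66) fell beside KRT8 and KRT16. KRT8 and KRT18 overlap in exons and cannot be separated fully. EPCAM, an epithelial marker outside the keratins, was at 663 and 686 CPM with siControl and 651 and 649.9 with HMOX1si1.

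In the list of classical-subtype, mucin and brush border genes, the glandular programme of pancreatic carcinoma, 9 of 40 fell and 0 rose (median −0.40). AGR2, a disulfide isomerase needed for mucin folding, was at 122 and 137 CPM in the siControl libraries and 40.8 and 40.6 in the HMOX1si1 libraries (log2 fold change −1.67 with an SE of 0.10, edgeR adjusted p = 0.00491). VIL1, villin of microvilli, fell from 447 and 452 to 144 and 140.4 CPM (log2 fold change −1.66 with an SE of 0.09, edgeR adjusted p = 0.00453). MUC13, a membrane mucin, fell from 898 and 923 to 317 and 357 CPM (log2 fold change −1.43 with an SE of 0.13, edgeR adjusted p = 0.00618). The intestinal and pancreatic homeobox factors CDX2 (−0.84) and PDX1 (−1.12) fell, and so did BTNL8 (−1.88), ANXA13 (−1.51), CLRN3 (−0.62) and MYO1A (−0.52). VIL1 shares exons with USP37 and MYO1A with TAC3. The basal-like subtype list was divided, with 2 rises, HMGA2 (0.62) and TP63 (1.02), and 2 falls, KRT16 and LEMD1 (−1.61), among 11.

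**Figure D3:**
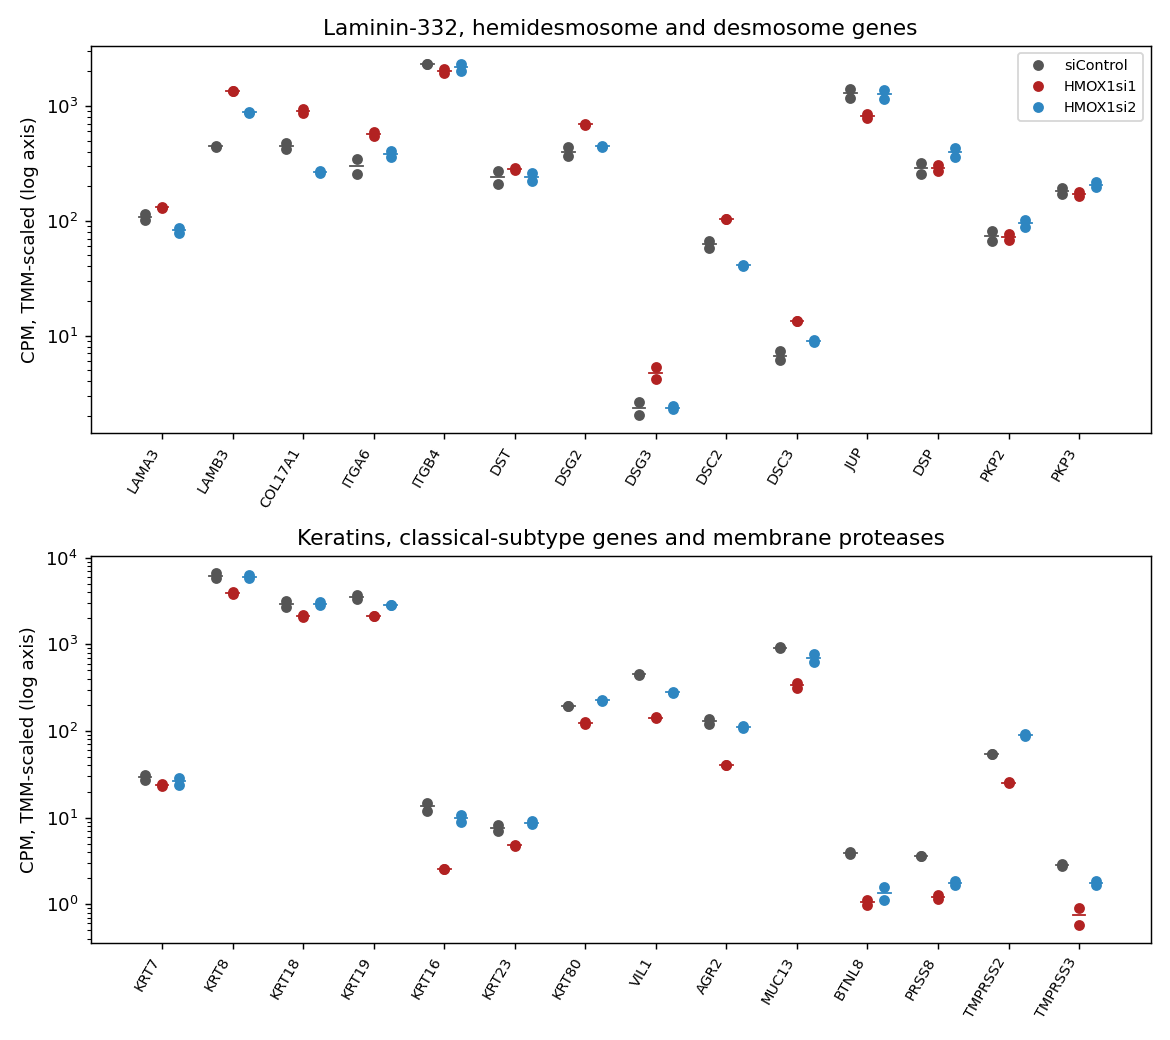
CPM after TMM scaling on a log axis for siControl (grey), HMOX1si1 (red) and HMOX1si2 (blue), with 1 point per library and a bar at the group mean. The upper panel shows laminin-332, hemidesmosome and desmosome genes, where COL17A1 rises with HMOX1si1 and lies below the controls with HMOX1si2. The lower panel shows keratins, glandular genes and membrane proteases.

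Membrane and secreted proteases and their inhibitors gave 7 falls and 0 rises among 21 (median −0.55). TMPRSS2, a serine protease of glandular epithelium, was at 54.7 and 54.8 CPM in the siControl libraries and 25.5 and 24.9 in the HMOX1si1 libraries (log2 fold change −1.12 with an SE of 0.09, edgeR adjusted p = 0.00556). PLAT, tissue plasminogen activator, fell from 1166 and 1246 to 634 and 679.6 CPM (log2 fold change −0.88 with an SE of 0.09, edgeR adjusted p = 0.0085). SLPI, a secreted antiprotease, fell from 212 and 244 to 118 and 108 CPM (log2 fold change −1.02 with an SE of 0.11, edgeR adjusted p = 0.00962). PRSS8 (−1.58), TMPRSS3 (−1.93) and the kallikreins KLK11 (−1.02) and KLK7 (−0.78) were the others. Of 11 annexins, calcium-dependent membrane binders, 4 fell, among them ANXA4 from 1219 and 1238 to 743 and 777 CPM (log2 fold change −0.69 with an SE of 0.08, edgeR adjusted p = 0.0106). Of the 3 alkaline phosphatases measured, ALPG and ALPP fell, the second from 176 and 186 to 86.3 and 95.4 CPM (log2 fold change −0.997 with an SE of 0.10, edgeR adjusted p = 0.00706). ALPG and ALPP are close copies, so reads may be shared.

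Mesenchymal and TGF-beta matrix genes showed 8 rises and 0 falls among 29 (median 0.43). TNC, the matrix glycoprotein tenascin-C, was at 94.9 and 84.0 CPM in the siControl libraries and 214 and 222 in the HMOX1si1 libraries (log2 fold change 1.29 with an SE of 0.12, edgeR adjusted p = 0.00673). SNAI2, the repressor Slug, rose from 33.6 and 33.3 to 66.0 and 86.1 CPM (log2 fold change 1.18 with an SE of 0.19, edgeR adjusted p = 0.0205). THBS1, thrombospondin-1, rose from 49.9 and 44.9 to 93.1 and 92.7 CPM (log2 fold change 0.97 with an SE of 0.09, edgeR adjusted p = 0.00691). SNAI1 (1.52), LTBP1 (0.54), LTBP2 (0.61) and VIM were among the others. Of 21 YAP and TEAD genes 5 rose and 0 fell, namely YAP1 (0.46), NT5E (0.59), LATS2 (0.70), DLC1 (0.79) and CCN1.

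Interferon-stimulated genes, the antiviral programme set off by RNA and DNA sensors, gave 14 rises and 2 falls among 44 measured (median 0.15). RSAD2, the antiviral enzyme viperin, was at 6.19 and 5.68 CPM in the siControl libraries and 23.8 and 20.3 in the HMOX1si1 libraries (log2 fold change 1.89 with an SE of 0.15, edgeR adjusted p = 0.00556). IFIT2, a binder of foreign RNA, rose from 61.2 and 54.8 to 146 and 146 CPM (log2 fold change 1.33 with an SE of 0.10, edgeR adjusted p = 0.00538). HERC5, the ligase that attaches ISG15, rose from 8.48 and 9.19 to 19.0 and 21.4 CPM (log2 fold change 1.19 with an SE of 0.14, edgeR adjusted p = 0.00995). OASL (0.83), SAMD9 (0.84), the RNA sensor IFIH1 (0.74), DDX60L (0.72), ISG15 (0.64), IFIT1 (0.62), DHX58 (0.54), IFI44 (0.51), IFIT3 (0.46) and OAS1 (0.42) rose less. IFNL1, an interferon itself, rose from 12 and 6 counts to 85 and 91 (edgeR adjusted p = 0.0179). TRIM22 (−1.38) and ISG20 (−0.83) fell. RSAD2 shares exons with CMPK2, and IFIT2 with LIPA.

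The promoter of IFIT1 is shown for its interferon-stimulated response elements. It is RefSeq sequence of GRCh38.p14, the 250 bases before the start, at chr10:89392373-89392622, plus strand.
IFIT1: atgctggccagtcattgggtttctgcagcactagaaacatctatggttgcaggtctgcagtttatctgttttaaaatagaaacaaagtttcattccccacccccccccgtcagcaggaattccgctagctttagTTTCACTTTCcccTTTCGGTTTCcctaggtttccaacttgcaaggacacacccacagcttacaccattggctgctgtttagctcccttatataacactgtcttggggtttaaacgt
Capitals mark 2 matches to the element (GAAA, then 2 bases of any kind, then GAAA), here on the opposite strand, starting 116 and 103 bases before the start. The letters occurred in 2.37% of the 10911 promoters, and in 20 of the 35 measured interferon-stimulated genes with a promoter in the table. Among the 11 of these genes that rose, 9 held it. Over all called genes the letters occurred in 3.24% of 555 promoters of genes that rose and in 3.04% of 493 that fell.

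Genes of NF-kappaB, chemokines and interleukin-1 moved both ways, with 8 rises and 6 falls among 37 (median 0.49). CSF1, the growth factor of macrophages, was at 47.1 and 48.1 CPM in the siControl libraries and 83.3 and 89.7 in the HMOX1si1 libraries (log2 fold change 0.86 with an SE of 0.13, edgeR adjusted p = 0.0185). CXCL8, a neutrophil chemokine, rose from 2.04 and 1.85 to 6.70 and 4.502 CPM (log2 fold change 1.53 with an SE of 0.24, edgeR adjusted p = 0.0194), and CCL5, a T cell chemokine, from 1.02 and 1.10 to 3.77 and 3.68 CPM (log2 fold change 1.80 with an SE of 0.39, edgeR adjusted p = 0.041). The NF-kappaB subunits RELB (0.77) and NFKB2 (0.70), the brakes TNFAIP3 (0.70) and NFKBIB (0.71), and ICAM1 (0.87) rose. IL1RN, which blocks the interleukin-1 receptor, fell from 5.78 and 5.45 to 1.502 and 1.48 CPM (log2 fold change −1.91 with an SE of 0.16, edgeR adjusted p = 0.00598). IL18 (−0.79), BIRC3 (−0.81), LIF (−0.50), CXCL16 (−0.48) and NFKBIZ (−0.41) fell. None of 17 MHC class I genes passed in edgeR (5 at an unadjusted p under 0.05, DESeq2 3).

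The proliferation lists, on which the study's question bears, held few calls. In DNA replication and G1/S 1 of 42 genes rose and 2 fell (median −0.00). CDK6, a kinase that opens the G1 phase, was at 41.0 and 34.7 CPM in the siControl libraries and 84.9 and 89.0 in the HMOX1si1 libraries (log2 fold change 1.2 with an SE of 0.12, edgeR adjusted p = 0.00691). CCNE1, cyclin E1 of S phase entry, fell from 7.60 and 7.14 to 2.81 and 3.43 CPM (log2 fold change −1.24 with an SE of 0.16, edgeR adjusted p = 0.0124), and so did E2F2 (−0.62). In mitosis 1 of 35 rose, KIF20A (0.50), and 3 fell, AURKA (−0.46), BIRC5 (−0.55) and HJURP, a histone chaperone of the centromere, from 75.2 and 81.7 to 36.3 and 35.8 CPM (log2 fold change −1.12 with an SE of 0.13, edgeR adjusted p = 0.0107). The mitosis list as a whole leaned the other way, with 26 of 35 values positive and a median of 0.21. These shares, 3 of 42 and 4 of 35, are near the 10.0% of all genes.

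Of 26 p53 targets and brakes of the cycle 3 rose, BTG2 (0.63), XPC (0.58) and PLK2 (0.38), and ZMAT3 fell from 11.1 and 9.51 to 4.53 and 3.63 CPM (log2 fold change −1.34 with an SE of 0.18, edgeR adjusted p = 0.0141). In the BCL2 and caspase list 2 of 25 genes rose and 2 fell. PMAIP1, the BH3-only protein NOXA, rose from 35.3 and 31.0 to 61.7 and 54.9 CPM (log2 fold change 0.81 with an SE of 0.14, edgeR adjusted p = 0.0246). DIABLO, an antagonist of inhibitors of apoptosis, fell from 52.98 and 63.1 to 31.4 and 24.7 CPM (log2 fold change −1.05 with an SE of 0.18, edgeR adjusted p = 0.0255), and BIRC3, such an inhibitor, fell. Of 31 MYC and ribosome biogenesis genes 3 rose, ODC1 (0.73), UBTF (0.66) and RRP12 (0.47).

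Nuclear genes of the ribosome and the respiratory chain were lower as groups, by small amounts. All 77 measured cytosolic ribosomal protein genes had a negative log2 fold change (median −0.43), and 6 passed. The list median per library, as log2 against the control mean, was −0.10 and 0.10 with siControl and −0.33 and −0.53 with HMOX1si1. With HMOX1si2 it was −0.41 and −0.10. The list thus also shifted between libraries of the same label, so its members are not 77 separate observations. RPS16, of the small subunit, was the far member at 438 and 499 CPM in the siControl libraries and 159 and 127 in the HMOX1si1 libraries (log2 fold change −1.71 with an SE of 0.20, edgeR adjusted p = 0.0106). The other calls, RPL27A, RPS25, RPS15, RPL35 and RPL14, lay between −0.49 and −0.43. Of 82 nuclear oxidative phosphorylation genes 78 had a negative value (median −0.45) and 13 fell. Here the library medians were −0.09 and 0.09 with siControl, −0.38 and −0.56 with HMOX1si1, and −0.46 and −0.21 with HMOX1si2. ATP5F1B, the catalytic subunit of ATP synthase, was at 914 and 979.6 CPM in the siControl libraries and 612 and 515 in the HMOX1si1 libraries (log2 fold change −0.75 with an SE of 0.16, edgeR adjusted p = 0.043). NDUFB1 of complex I (−0.93), UQCR11 of complex III (−0.75) and COX7B of complex IV (−0.75) fell too. None of the 13 genes of the mitochondrial genome passed in edgeR or DESeq2, nor had any an unadjusted p under 0.05 (median 0.06).

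Mitochondrial ribosomal proteins had 2 falls and 1 rise among 78 (median −0.26), and the proteasome 3 falls among 46 (median −0.22), with PSMB2, a subunit of the core, from 142 and 146 to 81.6 and 86.1 CPM (log2 fold change −0.78 with an SE of 0.09, edgeR adjusted p = 0.0103). Falls were 2.6% and 6.5% of these lists, below or near the 5.01% of all genes. The zinc finger genes of the ZNF series are mostly KRAB repressors of repeats and genes. Of these 41 of 392 rose and 3 fell, and 308 had a positive value (median 0.26). The share that rose was 10.5%, against 5.02% of all genes. ZNF616 was at 4.23 and 4.01 CPM in the siControl libraries and 10.9 and 12.7 in the HMOX1si1 libraries (log2 fold change 1.52 with an SE of 0.15, edgeR adjusted p = 0.00691). ZNF77 rose from 2.96 and 2.86 to 7.89 and 7.53 CPM (log2 fold change 1.41 with an SE of 0.14, edgeR adjusted p = 0.00679), and ZNF92 from 12.1 and 9.31 to 24.6 and 26.6 CPM (log2 fold change 1.26 with an SE of 0.16, edgeR adjusted p = 0.0117). The ZNF genes share long runs of related sequence, so reads may be divided among them.

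Change also went with gene length, and its part in these group values was not tested. Genes whose mean log2 CPM was 2 or more were put in 5 length classes of near equal size by their exonic bases. The median log2 fold change was −0.17 in the shortest class (207 to 3018 bases) and 0.14 in the longest (8383 to 118976 bases). The shortest class held 61 rises and 177 falls, and the longest 185 and 69. The 2 controls also differed from each other by length, at −0.06 and 0.06 around their mean in the shortest class and 0.07 and −0.07 in the longest. Within the shortest class, 38 ribosomal protein genes had a median of −0.42 and 45 oxidative phosphorylation genes −0.48, against −0.16 for the other genes in both cases. From the shortest class to the longest, ZNF genes had medians of 0.10, 0.17, 0.34, 0.23 and 0.27, against −0.17, −0.05, −0.01, 0.07 and 0.14 for the other genes. The gap was widest in the middle class and smallest in the longest.

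**Figure D4:**
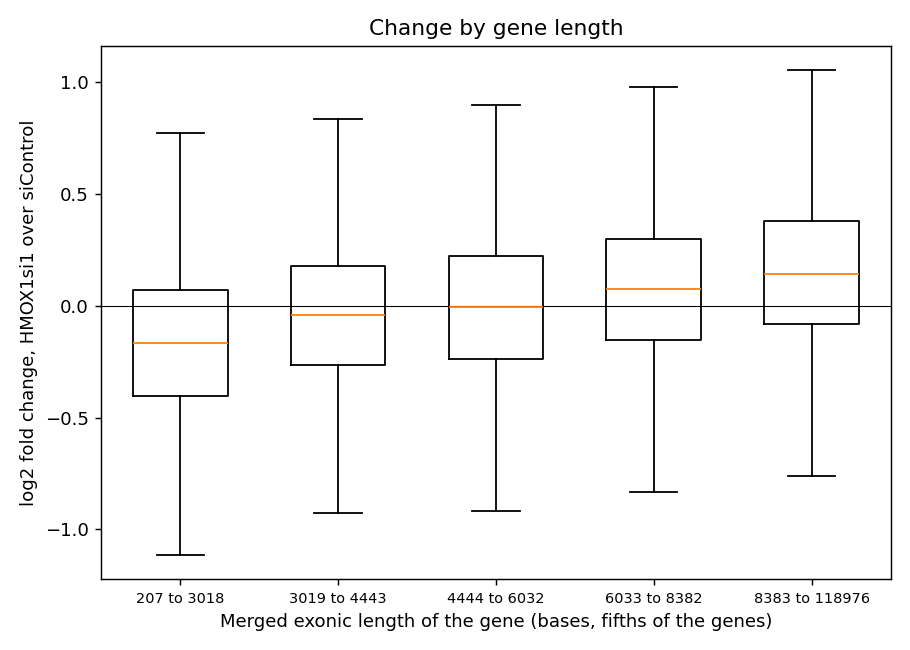
Log2 fold change, HMOX1si1 over siControl, in 5 classes of exonic length in bases, for genes whose mean log2 CPM was 2 or more. Lines are medians, boxes the middle 50% of genes, and whiskers the usual box plot reach with genes beyond it not drawn. The medians run from −0.165 in the shortest class to 0.144 in the longest.

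Cholesterol synthesis had 5 falls among 25 (median −0.29) and 1 rise. EBP, a sterol isomerase, was at 67.0 and 75.8 CPM in the siControl libraries and 41.3 and 36.8 in the HMOX1si1 libraries (log2 fold change −0.87 with an SE of 0.13, edgeR adjusted p = 0.0179). MSMO1 (−0.73), TM7SF2 (−0.81), SQLE, the squalene epoxidase (−0.63), and IDI1 (−0.43) fell too. Of 33 genes of fatty acid and triglyceride metabolism, DGAT1 (−0.58), ACADM (−0.49) and SCD fell and LPIN1 (0.51) rose. Among 26 cytochrome P450 genes 3 fell and 1 rose. CYP4F12, a fatty acid hydroxylase, fell from 19.4 and 21.0 to 7.61 and 8.20 CPM (log2 fold change −1.35 with an SE of 0.13, edgeR adjusted p = 0.00675), and CYP1B1, which oxidises estrogens, rose from 6.52 and 6.92 to 16.3 and 16.3 CPM (log2 fold change 1.28 with an SE of 0.14, edgeR adjusted p = 0.00946).

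In the lysosome list CTSA (−0.67) and GLA (−0.49) fell and the cathepsins CTSL (0.48) and CTSB (0.38) rose, out of 32. Of 9 metallothionein and zinc genes, the zinc exporter SLC30A1 rose from 121 and 102 to 219 and 195 CPM (log2 fold change 0.90 with an SE of 0.14, edgeR adjusted p = 0.0209) and so did MTF1, the zinc-sensing factor (0.83). In the machinery that small RNAs share, AGO4 was the 1 call among 13 (0.51, edgeR adjusted p = 0.0461).

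Growth factor genes changed in single members. In the FGF list FGFBP1, FGF18 (−1.70) and FGF19 fell, and FGFRL1, a receptor without a kinase, rose (0.67), of 12 measured. FGF19, an enterohepatic hormone, was at 649 and 694 CPM in the siControl libraries and 425 and 447 in the HMOX1si1 libraries (log2 fold change −0.62 with an SE of 0.09, edgeR adjusted p = 0.0176). In the WNT list 5 of 28 fell and 2 rose. WNT10A (−0.89), WNT11 (−0.92), WNT4 (−1.12), the receptor FZD5 (−0.56) and PORCN, which acylates WNT proteins (−0.55), fell. WNT7B rose from 206 and 215 to 290.2 and 309.9 CPM (log2 fold change 0.51 with an SE of 0.09, edgeR adjusted p = 0.0255), and WNT9A rose from 9 and 11 counts to 100 and 89 (edgeR adjusted p = 0.00691).

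**Figure D5:**
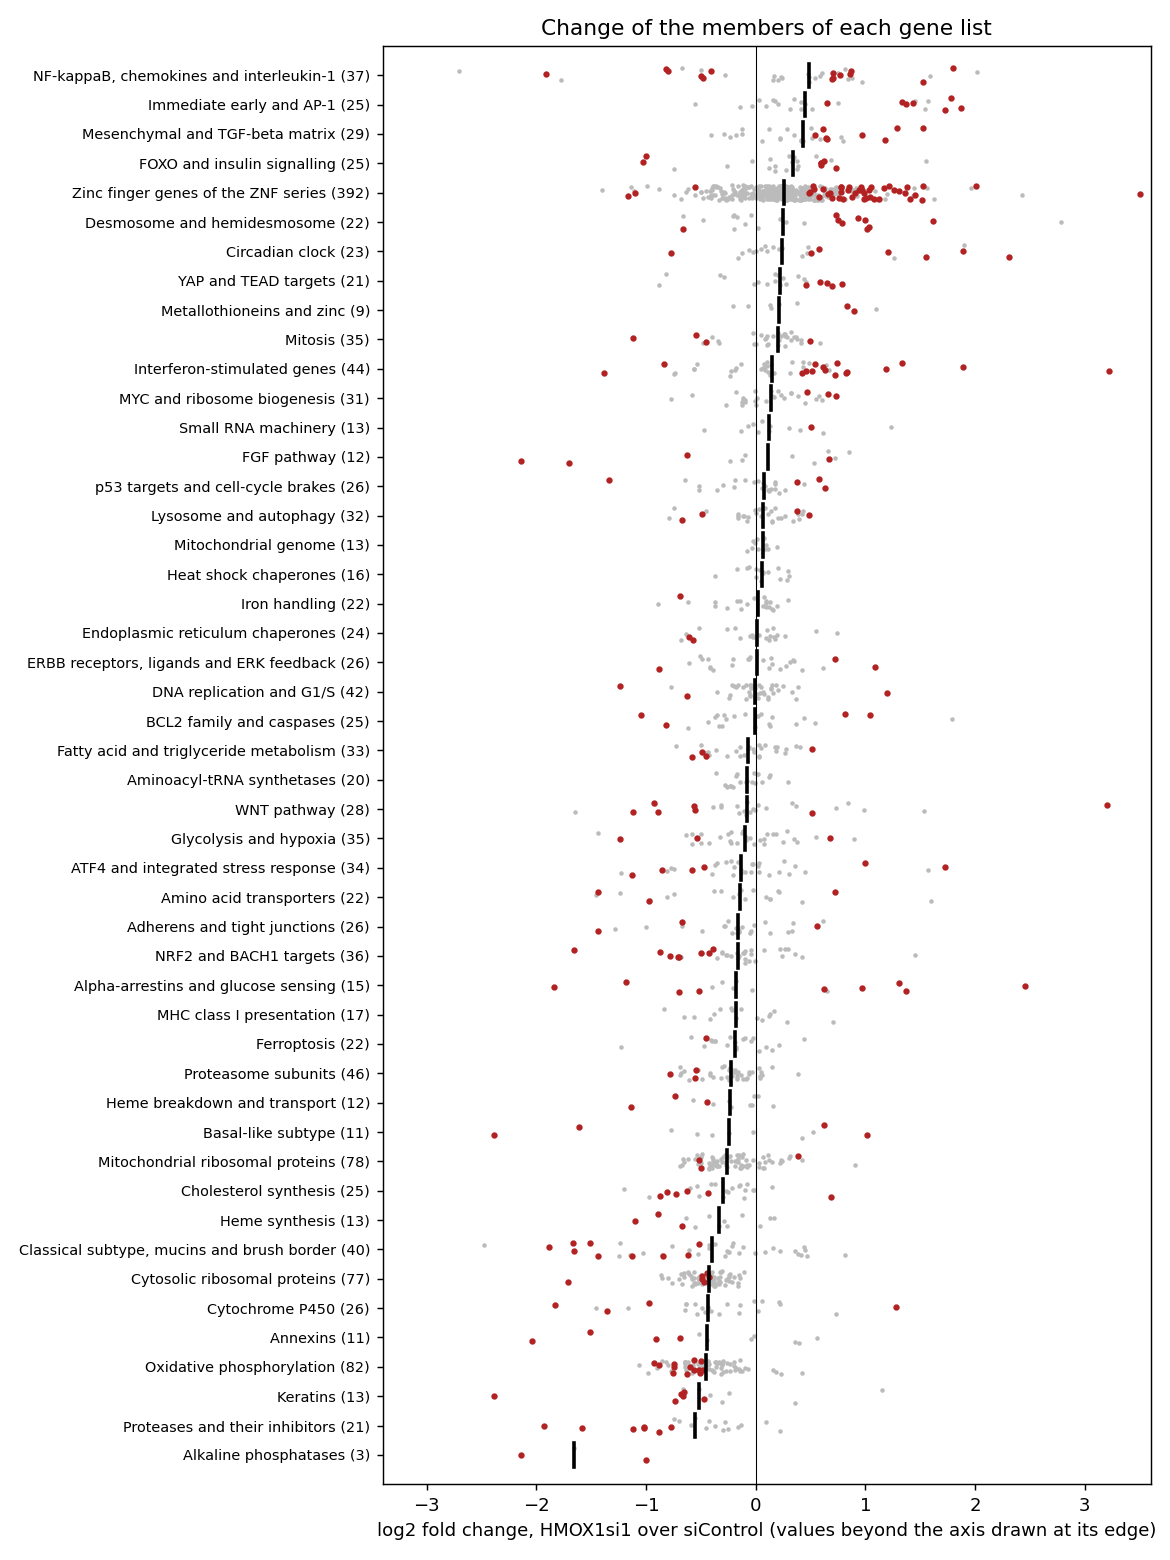
Log2 fold change, HMOX1si1 over siControl, of the measured members of each of the 48 gene lists, with the number measured in brackets. Red points have an adjusted p under 0.05, grey points do not, and black bars are list medians, which run from −1.66 for the alkaline phosphatases to 0.49 for NF-kappaB and interleukin-1 genes. Values beyond the axis are drawn at its edge.

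Where the siRNAs were set against each other, 499 of the 13769 genes (3.62%) passed edgeR's test of HMOX1si2 minus HMOX1si1, among them 285 of the 1381. In 281 of these 285 the change against siControl was smaller with HMOX1si2, or opposite. The same HMOX1si1 libraries chose the genes and enter the difference, and both siRNAs share the controls, so these counts are a description.

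COL17A1 stood at 272 and 258 CPM in the HMOX1si2 libraries, below the controls, while HMOX1si1 lay above them (log2 difference −1.77 with an SE of 0.11, edgeR adjusted p = 0.00581). EREG stood at 17.4 and 19.1 CPM with HMOX1si2 (log2 difference −1.49 with an SE of 0.10, edgeR adjusted p = 0.00671). PRR15L was at 18.7 and 20.2 CPM with HMOX1si2, above both controls (log2 difference 2.72 with an SE of 0.15, edgeR adjusted p = 0.00581). TMEM151A was at 105 and 90.8 (log2 difference 2.02 with an SE of 0.12, edgeR adjusted p = 0.00581), and AKR1B10 at 15.2 and 16.2 (log2 difference 1.98 with an SE of 0.15, edgeR adjusted p = 0.00696). LGALS2 was at 48.5 and 69.3 CPM with HMOX1si2 (log2 difference 1.97 with an SE of 0.21, edgeR adjusted p = 0.0129), and KRT16 at 8.80 and 10.8 (log2 difference 1.94 with an SE of 0.18, edgeR adjusted p = 0.0102). All of these but KRT16 were picked as the largest differences among genes that passed this test, so their passing is no separate result. HMOX1 itself was lower with HMOX1si2, and its part in these differences was not tested.

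Other changes did not differ detectably between the siRNAs. ALAS1 was at 189 and 179 CPM with HMOX1si2 (log2 difference −0.01 with an SE of 0.09, edgeR adjusted p = 0.974), and TXNIP at 322 and 343 (log2 difference −0.21 with an SE of 0.09, edgeR adjusted p = 0.246). CDK6 was at 83.0 and 76.2 (log2 difference −0.13 with an SE of 0.11, edgeR adjusted p = 0.593), and CYP4F12 at 6.38 and 6.96 (log2 difference −0.24 with an SE of 0.13, edgeR adjusted p = 0.354). ZNF616 was at 12.2 and 10.9 (log2 difference −0.03 with an SE of 0.14, edgeR adjusted p = 0.93). With 2 libraries a side, these p-values do not show that the siRNAs act alike.

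Each of the 4 libraries was left out in turn, which leaves 1 arm with a single library, so a lost call does not show that it rests on the library left out. Without siControl replicate 2 no gene passed edgeR's test (2806 had an unadjusted p under 0.05, no other tool was run on that subset), and HMOX1 itself stood at −1.79 with an adjusted p of 0.0637. Without siControl replicate 1, HMOX1si1 replicate 1 or HMOX1si1 replicate 2, there were 173, 198 and 67 calls. Among the named genes 32 kept their call in each of these 3 settings, including HMOX1, LGALS2, KRT16, ALPG, FGFBP1, AGR2, VIL1, MUC13, LAMB3, NOCT, NAV2, PPP1R15A, FOSL1, JUN, ARRDC3, ARRDC4, PER1, IFIT2, RSAD2 and SLC7A7.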

How the data were processed

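RNA of 6 AsPC-1 libraries was measured in 1 table, and its deposited values were treated as estimated counts because of their form, since no label states the unit. What aligned and counted the reads is not given in the sources used here. Mouse builds (GRCm38, mm10) stand in the submitters' processing notes, although each of the 20263 identifiers is human. The values are whole already, so rounding changed nothing, and low values (1 to 10) are even in 71.9% of cases, those above 100 in 49.9%, for which no source gives a reason. The table has 0 unused columns. Symbols matched 20148 genes, and GENCODE 29 (GRCh38) matched 20224 and gave positions, exonic lengths and overlaps. Strand in counting is not stated, so reads of overlapping or antisense genes cannot be told apart, and 4400 tested genes (32.0%) overlap another in an exon.

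Genes passing filterByExpr were scaled by TMM and fitted in R 4.3.3 with edgeR 4.0.16 (glmQLFit, glmQLFTest), with 1 mean per group over all 6 libraries, so the 3 groups share 1 estimate of the spread. P-values were adjusted by Benjamini-Hochberg over all 13769 genes with a threshold of 0.05. The SE is the absolute log2 fold change over the square root of F. The test was checked on simulated data. Alternatives were DESeq2 1.42.0, other scalings and filters, a 1.2-fold glmTreat, a replicate block and leaving out each library. Named genes are HMOX1, the called genes at a mean log2 CPM of 2 or more that have the 15 largest fold changes and 6 largest CPM differences each way, up to 4 members per list by p with any other called member, and the 6 called genes each way with the largest difference between siRNAs. Not all of them are printed, and some single genes that count in their lists are not reported here. The members, the 48 lists and this rule were chosen with earlier results of these data known. Promoters (RefSeq, GRCh38.p14) matched 10911 tested genes, and 250 bases before the start were searched.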

Additional observations from a re-analysis of the deposited data

Results flagged for a closer look

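In 26 of the reported genes named for HMOX1, fold change, CPM or difference, the effect against siControl differed between HMOX1si1 and HMOX1si2. Each passed edgeR's test of HMOX1si2 minus HMOX1si1 itself with Benjamini-Hochberg adjustment. Genes named for difference were chosen by that same test, so their passing was set in advance. Over all tested genes 3.62% passed it. For HMOX1 the log2 difference was −1.10, with less transcript under HMOX1si2. Genes that fell with HMOX1si1 and stood higher with HMOX1si2 were PRR15L (2.72), C2orf88 (2.03), TMEM151A (2.02), AKR1B10 (1.98), DOK7, a muscle-junction adaptor (1.98), LGALS2 (1.97), KRT16 (1.94), APLP1 (1.71), CYP2B6 (1.69), CARNS1 (1.56), FBXO2 (1.37), NR0B2 (1.27), SLC2A6 (0.94), FGFBP1 (0.81), RASL11A (0.68) and KRT8 (0.65). Genes that rose with HMOX1si1 and stood lower with HMOX1si2 were COL17A1 (−1.77), ENSG00000258941 (−1.77), EREG (−1.49), IGFN1 (−1.46), C7orf57 (−1.40), IL1RL1 (−1.38), DHRS2 (−0.98), NOCT (−0.80) and LAMB3 (−0.63). Each arm holds 2 libraries, and groups of that size cannot be screened for a single outlying library.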

How the results depend on the processing

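The count of 1381 genes called with HMOX1si1 stayed within 1.5 times under 7 of the settings tried: with only the 4 libraries of this comparison (1529), RLE size factors (1383), library totals without TMM (1337), any gene with a count (1437), at least 1 CPM in 2 libraries (1461), counts halved (1434), and the block with the HMOX1si2 numbers crossed, added after seeing the data (955). It was 2639 with DESeq2, 539 with glmTreat against 1.2-fold and 481 with the replicate block, of which 470 were among the 1381. Leaving out 1 library at a time gave 0 to 198 calls; the lone library left is then assumed to vary like the other groups. For HMOX1si2 minus HMOX1si1 the count of 499 became 1406 with DESeq2, 258 with glmTreat, 87 with the replicate block, 312 with the crossed block, and 19 to 26 when an HMOX1si1 library was left out. HMOX1 was past the threshold in all settings except without siControl replicate 2 (−1.79, edgeR adjusted p = 0.0637), and its log2 fold change ran from −1.85 to −1.65 as single libraries were left out. Of the 291 named genes that were called none reversed in any setting, and without HMOX1si1 replicate 2 the call held for 37, without siControl replicate 1 for 60 and without HMOX1si1 replicate 1 for 70. Mitochondrial genes, none of them called, changed sign: without HMOX1si1 replicate 2 the log2 values were −0.27 for MT-ATP8, −0.19 for MT-CO2, −0.21 for MT-ND1 and −0.079 for MT-ND5, without HMOX1si1 replicate 1 they were 0.41, 0.32, 0.34 and 0.43, and without siControl replicate 1 −0.01 for MT-CO2 and −0.03 for MT-ND1. Of 672 refitted list medians 9 changed sign, in 5 lists whose own medians were at most 0.12 from 0. Beyond these fewer libraries, the cause of each shift was not tested. The labels do not say whether the replicate numbers pair the libraries. Deviations of same-numbered libraries correlated at 0.008 between siControl and HMOX1si1, 0.027 between siControl and HMOX1si2 and −0.153 between the siRNAs. With 2 libraries a group, these values cannot show whether same-numbered libraries shared a culture or day. With 36.1 to 45.1 M counts per library, 2 libraries a side limit these results more than depth does for genes above the expression minimum of the named genes; lower genes such as IFNL1 rest on few counts.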

Other observations

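Some genes swung widely between libraries that carry the same label. CLDN4, a tight junction claudin, had 26766 and 37838 counts with siControl, 257 and 25886 with HMOX1si1, and 28009 and 6640 with HMOX1si2, while its neighbour CLDN3 stayed at 52.9 and 57.0 CPM with siControl and 55.5 and 53.3 CPM with HMOX1si1. Replicates lay more than 4-fold apart in 129 genes with siControl, 137 with HMOX1si1 and 120 with HMOX1si2.

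PDXP and its upstream neighbour SH3BP1 on chromosome 22 moved in opposite directions. PDXP had 97 and 133 counts with siControl, 759 and 795 with HMOX1si1, and 182 and 800 with HMOX1si2. SH3BP1, a RAC GTPase activator chosen here after its values were seen, was at 41.7 and 47.5 CPM with siControl, 13.4 and 15.7 with HMOX1si1, and 39.6 and 24.0 with HMOX1si2. In the HMOX1si2 libraries the library with more PDXP had less SH3BP1. How reads were divided between these genes was not tested.

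On chromosome 7 the readthrough model ENSG00000284292 and the genes it covers were also summed. ENSG00000284292, ARPC1A, ARPC1B and PDAP1 together were at 8240 and 9005 CPM with siControl and at 7524 and 6810 CPM with HMOX1si1, while ARPC1B by itself was at 4417 and 4774, then 3967 and 3362 CPM. ENSG00000258941, which matched no gene model of GENCODE 29, so that its position and overlaps are not given, rose with HMOX1si1 from 29.8 and 18.7 to 68.6 and 62.2 CPM (log2 fold change 1.43 with an SE of 0.22, edgeR adjusted p = 0.0184) and stood at 19.7 and 18.8 CPM with HMOX1si2.

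With both siRNAs called and opposite in sign against the shared controls there were 11 genes.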
